A study of Zea mays with 36 samples.

Results

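The mitochondrial chaperonin (CPN60) genes of maize, CPNA and mtcpn60II, were followed in the shoot apical meristem of rgd2-R mutant and non-mutant seedlings. Their probes were found by gene symbol or synonym in the platform annotation of the spotted array designs SAM1 and SAM3, which gave 2 of 768 annotated genes and 5 of 35200 probes. SAM1 carried 1 of them among 19200 probes, probe 2958, which is annotated to both genes at once. SAM3 carried 4 among 16000 probes, with probes 1586 and 12249 for CPNA (gene ID 542736) and probes 6359 and 13454 for mtcpn60II (gene ID 542707). The genes were picked because their ratios on SAM3 were high in an earlier look at these arrays, so the SAM3 ratios are given as a description with no test.

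The CPNA and mtcpn60II products are chaperonin subunits, encoded in the nucleus and imported into the mitochondrial matrix. There they assemble into ring complexes that, with a small co-chaperonin lid and ATP, fold newly imported proteins. Dividing plant tissues build mitochondria steadily and are known to express these genes without heat stress. The rgd2 gene is known to encode an ARGONAUTE7-like protein of the trans-acting small RNA pathway, which acts in leaf polarity.

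Both genotypes were grown together under controlled conditions, the rgd2-R allele having been introgressed into the inbred Mo17 for 5 generations. Meristem cells were cut out by laser microdissection at 14 days after germination, and their RNA went through 2 rounds of amplification before labelling. Each hybridisation held rgd2-R RNA in one dye and non-mutant RNA in the other. In replicates 1 to 3 of each design rgd2-R was in Cy3 and non-mutant in Cy5, and in replicates 4 to 6 the dyes were the other way round. Of the 12 hybridised replicates, 6 belong to each design, and each has a low, a mid and a high reading, which were averaged. The labels give neither the number of seedlings in a replicate nor the genome of the non-mutant seedlings.

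The channels of the low and mid readings of SAM3 replicate 3 look exchanged. Beyond this, the direction of the SAM3 replicates with rgd2-R in Cy3 was not settled by the data. Median background was higher in Cy3 than in Cy5 by 2.05 to 11.3 times in 34 of the 36 readings, but the ratio was 0.121 and 0.143 in the low and mid readings of SAM3 replicate 3. Over all SAM3 probes those readings ran against the high reading of the same replicate, with correlations of -0.911 and -0.909. With their channels exchanged the correlations were 0.911 and 0.909. The replicate 3 mean as labelled thus joins values that run against each other. Replicate 3 as labelled also ran against replicate 1 of the same orientation (r = -0.54), and with the channels of those readings exchanged it ran with replicate 1 (r = 0.62) but against replicate 2 (r = -0.34). Against replicates 4 to 6, of the other orientation, replicate 1 gave 0.15, -0.03 and 0.32, exchanged replicate 3 gave 0.16, -0.18 and 0.25, and replicate 2 gave -0.22, 0.02 and -0.16. The values of SAM3 are therefore given as labelled, with the exchange, and with replicates of this orientation turned in sign. Of the meristem markers, kn1 had a probe with median signals of 32.0 (Cy3) and 47.4 (Cy5) times its background on SAM1 and another of 27.0 and 63.6 times on SAM3. Taking the lower dye median of each probe, the 4 meristem probes of SAM1 ran from 2.14 to 32.0 times background and the 10 of SAM3 from 1.19 to 27.0 times, the lowest being another kn1 probe. The vascular and lignin probes ran from 1.10 to 67.7 times on SAM1 and from 1.49 to 51.8 times on SAM3, with sucrose synthase gene sus1 at the top of both. The photosynthesis probes ran from 0.966 to 2.65 times on SAM1, with rbcs1 probes at both ends. On SAM3 they ran from 1.16 to 3.26 times, with the malic enzyme gene ME1 at the top. The leaf primordium probes ran from 4.32 to 6.53 times on SAM1 and from 2.64 to 7.48 times on SAM3. The epidermis probes ran from 1.46 to 9.89 times on SAM1 and from 2.31 to 12.9 times on SAM3.

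**Figure D1:**
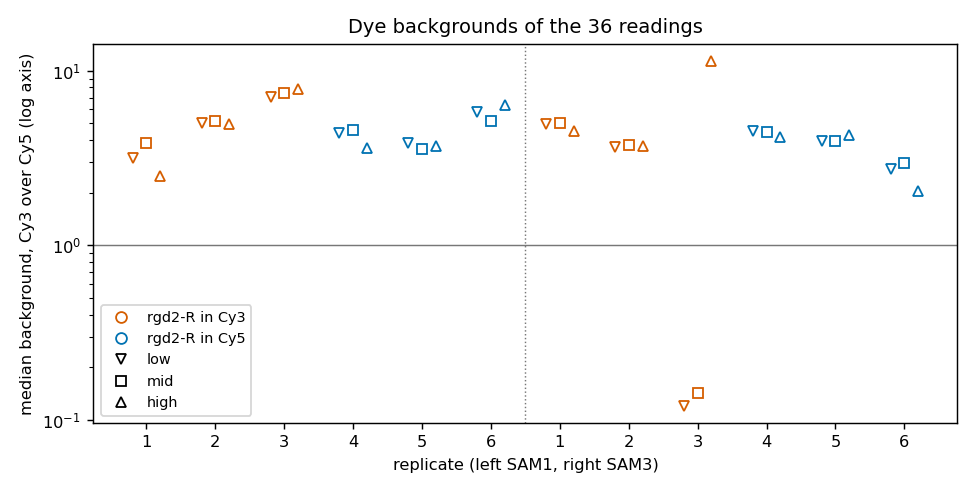
Median local background in Cy3 over that in Cy5 (log axis) for each of the 36 readings, by replicate, with SAM1 on the left and SAM3 on the right; colour gives the dye of rgd2-R and the marker shape the reading. The low and mid readings of SAM3 replicate 3 lie at 0.121 and 0.143, and all others between 2.05 and 11.3.

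The shared SAM1 probe was read to see whether CPN60 RNA differed between the genotypes on arrays other than those that picked the genes. The genes were still chosen with earlier results of these data known, so its p-values are given as a description and not as support. Probe 2958 was above 0 in every replicate mean, but its difference did not pass the test across the array. Its log2 ratios of rgd2-R over non-mutant were 0.38, 0.36 and 0.16 in replicates 1 to 3, with rgd2-R in Cy3, and 0.26, 0.03 and 0.53 in replicates 4 to 6, with rgd2-R in Cy5. Replicate 5 was the lowest and replicate 6 the highest, and the ranges of the orientations overlapped. The fitted ratio was 0.29 (SE 0.07, n = 6), a level in rgd2-R that was 1.22 times that in non-mutant, with an unadjusted p of 0.00588 and an adjusted p of 0.156 in limma's moderated test over all 19200 probes. No SAM1 probe passed an adjusted p of 0.05 (0%), whereas 1283 (6.68%) were higher in rgd2-R and 1559 lower at an unadjusted p under 0.05. A ratio above 0 in all 6 replicates, as for probe 2958, was seen for 598 probes (3.11%). With median centring the probe was above 0 in 5 of 6 replicates (replicate 5 at -0.02), as it was in the authors' deposited table turned to this direction (replicate 3 at -0.09). The ratio of probe 2958 or a higher one was reached by 2.59% of the SAM1 probes. In RNA of captured tissue, fewer cells of a type and less RNA per cell cannot be told apart.

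The readings of a single hybridisation differed for this probe by somewhat less than single readings of different replicates. The SD of the 3 readings had a median of 0.24 over the replicates. Between replicates the SD was 0.29 in the low readings, 0.29 in the mid readings and 0.29 in the high readings. It was 0.18 between the replicate means, each of which averages 3 readings. In replicate 3 the low, mid and high readings gave 0.01, -0.18 and 0.65, and in replicate 5 they gave 0.39, -0.11 and -0.19. Over all SAM1 probes the readings of replicate 5 also ran together less closely, with correlations of 0.25 to 0.27. In the other SAM1 replicates these correlations were 0.65 to 0.81. Without replicate 5 the fitted ratio of probe 2958 was 0.35 (SE 0.07). In all, 15 of 18 readings were above 0. The spot was dim, at 1.10 to 4.50 times its background in Cy3 and 1.95 to 9.64 times in Cy5. The dye term measures how far the ratio of each orientation lies from the mean of both, and is positive where rgd2-R in Cy5 is higher. It is thus smaller than the gap between the orientations. For this probe it was -0.01 (SE 0.07, limma adjusted p = 0.969) over the mean of the readings. That mean joins a dye term of 0.18 in the low readings (SE 0.09, adjusted p = 0.643), -0.01 in the mid readings (SE 0.11) and -0.21 in the high readings (SE 0.09, adjusted p = 0.532). No SAM1 probe passed for the dye term (0%), and 10.2% had an unadjusted p under 0.05.

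Because probe 2958 is annotated to both genes, its value cannot be assigned to CPNA or to mtcpn60II. The SAM1 and SAM3 replicates share their numbers, and the labels do not state whether the same RNA was put on both designs.

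**Figure D2:**
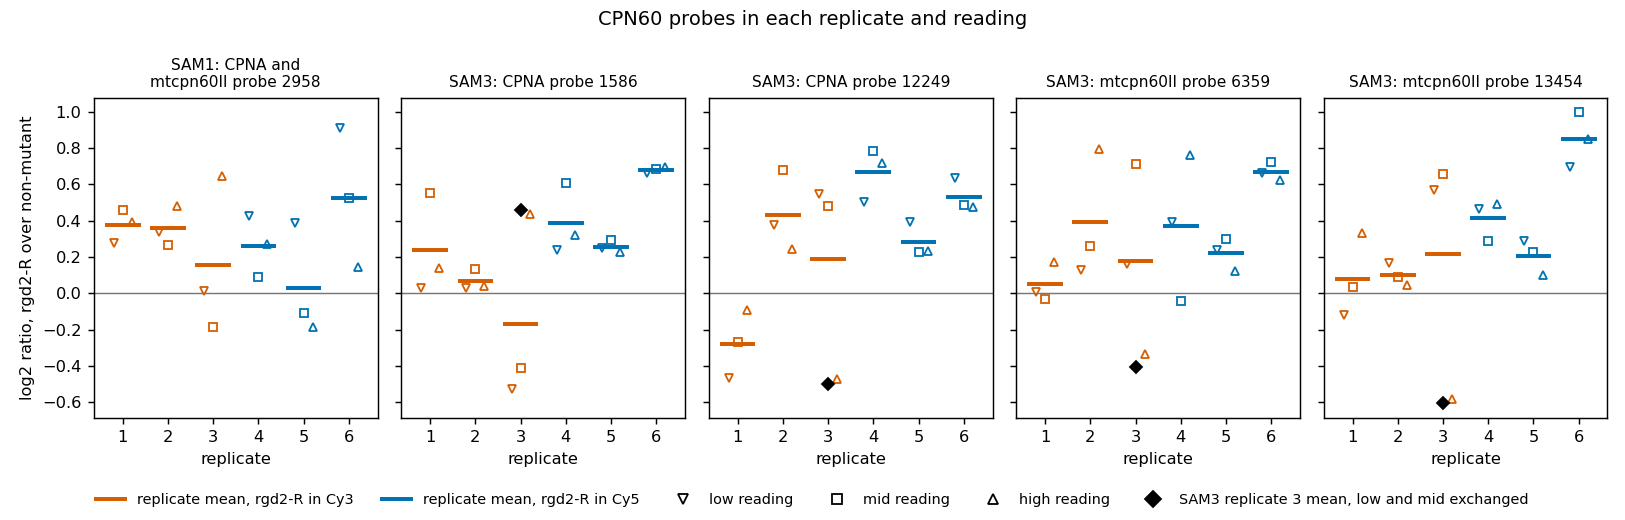
Log2 ratio of rgd2-R over non-mutant for the 5 CPN60 probes in each replicate; open markers are the low, mid and high readings and bars their mean, coloured by the dye of rgd2-R, and black diamonds give SAM3 replicate 3 with its low and mid readings exchanged. The means of replicates 4 to 6 lie above 0 for each SAM3 probe, and in replicate 3 probe 1586 lies on the other side of 0 from the other SAM3 probes.

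On SAM3 with the dyes as labelled, both genes had mean ratios above 0 with values of similar size. CPNA, as the mean of its probes, gave -0.02, 0.25 and 0.01 in replicates 1 to 3 and 0.53, 0.27 and 0.61 in replicates 4 to 6, with a fitted ratio of 0.27 (SE 0.07, n = 6) or 1.21 times the non-mutant level. The gene mean of mtcpn60II was 0.07, 0.25 and 0.20 in replicates 1 to 3 and 0.39, 0.21 and 0.76 in replicates 4 to 6, with a fitted ratio of 0.31 (SE 0.08, n = 6) or 1.24 times. For both genes replicate 6 was the highest and replicate 1 the lowest. The difference between the genes, mtcpn60II minus CPNA, averaged 0.04 on the log2 scale with an SD of 0.13 over the 6 replicates, and ran from -0.14 in replicate 4 to 0.19 in replicate 3. So the genes differed from each other by less than the spread between replicates, and with the low and mid readings of replicate 3 exchanged the difference averaged -0.07 with an SD of 0.22.

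The probes of CPNA were read one by one because they parted from each other. Probe 1586 gave 0.24, 0.07 and -0.17 in replicates 1 to 3 and 0.39, 0.26 and 0.68 in replicates 4 to 6 (fitted 0.24, SE 0.08). Probe 12249 gave -0.28, 0.43 and 0.19 in replicates 1 to 3 and 0.67, 0.28 and 0.53 in replicates 4 to 6 (fitted 0.30, SE 0.10). They lay on opposite sides of 0 in replicates 1 and 3, and the largest gap between them was 0.52 in replicate 1. In replicates 4 to 6 both were above 0.

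The probes of mtcpn60II stayed closer together. Probe 6359 gave 0.05, 0.39 and 0.18 in replicates 1 to 3 and 0.37, 0.22 and 0.67 in replicates 4 to 6 (fitted 0.31, SE 0.08). Probe 13454 gave 0.08, 0.10 and 0.22 in replicates 1 to 3 and 0.42, 0.21 and 0.85 in replicates 4 to 6 (fitted 0.31, SE 0.09). Both were above 0 in every replicate as labelled, and their largest gap was 0.29, in replicate 2.

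As labelled, 2 of the 4 SAM3 probes, both of mtcpn60II, were above 0 in all 6 replicates, beside 247 of all 16000 probes (1.54%). In the replicates with rgd2-R in Cy5 all 4 were above 0 in each replicate, beside 2521 of all probes (15.8%). Since the genes were picked on this contrast, nothing is read from these counts. The 4 ratios had a median of 0.31, beside -0.003 over all SAM3 probes, and 0.775% to 2.06% of the array reached the ratio of a given member or a higher one. On SAM3 as a whole 0 probes (0%) passed an adjusted p of 0.05 in limma, with 479 (2.99%) higher and 574 lower in rgd2-R at an unadjusted p under 0.05.

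The exchange of the low and mid readings of replicate 3 moved the probes in opposite directions. In that replicate the readings of probe 1586 were -0.53, -0.41 and 0.43 (low, mid, high) as labelled. Those of probe 12249 were 0.55, 0.48 and -0.47, those of probe 6359 were 0.16, 0.71 and -0.33, and those of probe 13454 were 0.57, 0.66 and -0.58. Thus probe 1586 ran opposite to the other member probes, including the other probe of its own gene, in each of the 3 readings. After the exchange the replicate 3 mean became 0.46 for probe 1586, -0.50 for probe 12249, -0.40 for probe 6359 and -0.60 for probe 13454. The gap between the CPNA probes in that replicate was then 0.96.

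With the exchange the fitted ratio was 0.35 (SE 0.08) for probe 1586, which was then above 0 in all 6 replicates. It was 0.19 (SE 0.13) for probe 12249, 0.22 (SE 0.12) for probe 6359 and 0.18 (SE 0.13) for probe 13454. The CPNA mean stayed at 0.27 (SE 0.07), since its probes moved apart by similar amounts, and the mtcpn60II mean went to 0.20 (SE 0.12). Over all SAM3 probes 309 (1.93%) were then above 0 in all 6 replicates, and 3.04% of the array reached the ratio of probe 1586 or a higher one, against 9.80% for probe 6359, 11.8% for probe 12249 and 13.3% for probe 13454. Taking replicate 3 by its high reading alone gave 0.27 for CPNA and 0.20 for mtcpn60II.

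Turning replicates in sign after the exchange showed how much rests on the arrays with rgd2-R in Cy3. With replicate 2 turned, CPNA was 0.19 and mtcpn60II 0.11, and the lowest probe was 12249 at 0.05. With replicates 1 and 3 turned instead, CPNA was 0.28 and mtcpn60II 0.34, and the probes ran from 0.12 for probe 1586 to 0.45 for probe 12249. The fitted ratio stayed above 0 for each member in these settings, but the replicates with rgd2-R in Cy5 were the same in all of them. Since the genes were picked for high ratios on these arrays, nothing is read from that sign. The orientation behind replicates 1 to 3 was not settled.

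The replicates with rgd2-R in Cy5 do not depend on this choice. Their means were 0.44 for probe 1586, 0.50 for probe 12249, 0.42 for probe 6359 and 0.49 for probe 13454. In the other orientation, as labelled, the means were 0.05, 0.11, 0.21 and 0.13 in the same order, and with the exchange they were 0.26, -0.11, 0.01 and -0.14. The dye term ran from 0.11 to 0.20 over the 4 probes, with limma adjusted p-values of 0.752 to 0.836, and from 0.09 to 0.32 with the exchange, with adjusted p-values of 0.754 to 0.844. No SAM3 probe passed for the dye term (0%), and 1049 (6.56%) had an unadjusted p under 0.05. Within replicates of a single orientation a genotype difference and a dye difference of the probe cannot be told apart.

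Signal on SAM3 lay above local background in both dyes for each member in each of the 18 readings, and no member spot was saturated. Probe 1586 stood at 9.57 to 133 times its background in Cy3 and 13.9 to 529 times in Cy5, and its readings differed by a median SD of 0.13 as labelled and 0.06 with the exchange. Probe 6359 stood at 2.01 to 21.2 times in Cy3 and 1.53 to 31.2 times in Cy5, with a median SD between readings of 0.23 as labelled and 0.20 with the exchange. For both probes the highest Cy3 and the lowest Cy5 value came from the low or mid reading of replicate 3, whose channels look exchanged. With those readings left out, the highest Cy3 value was 68.5 times for probe 1586 and 11.4 times for probe 6359. The lowest Cy5 values were then 15.1 and 1.89 times.

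**Figure D3:**
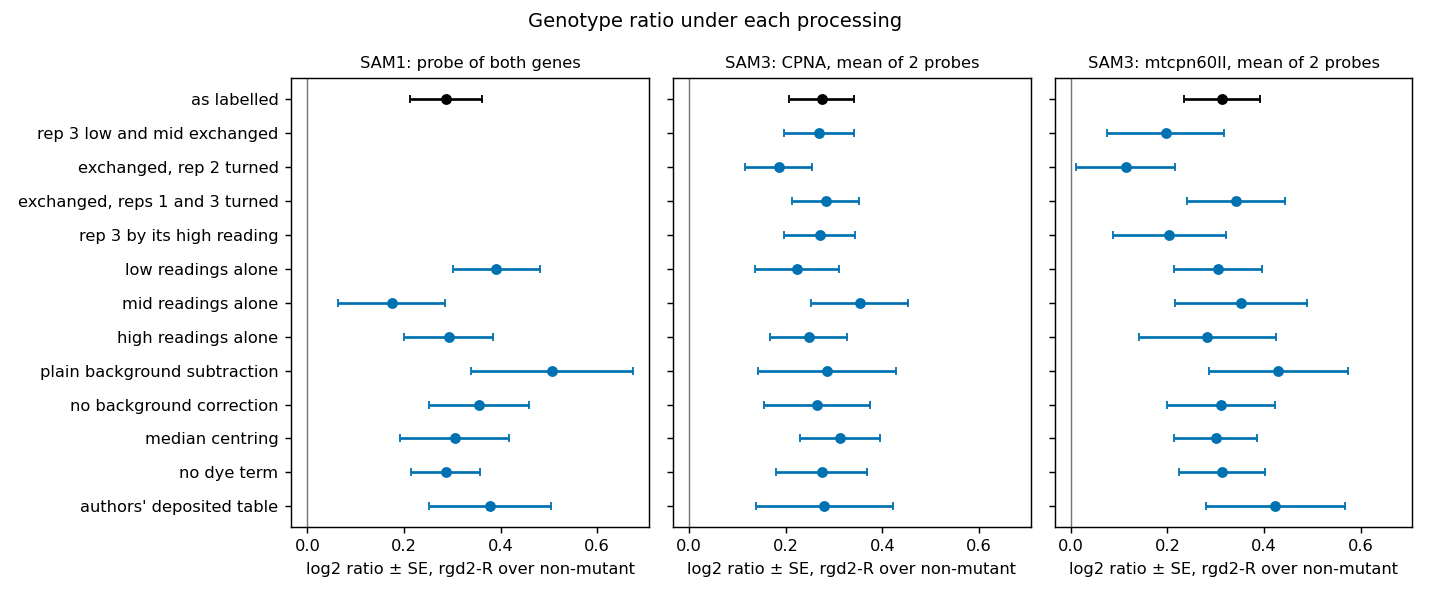
Fitted log2 ratio of rgd2-R over non-mutant with its SE for the shared SAM1 probe and for the SAM3 gene means of CPNA and mtcpn60II, under each way of processing the arrays; black is the value as labelled, and settings about SAM3 replicates have no SAM1 value. All points lie to the right of 0, and the lowest mtcpn60II value is 0.11, with the readings exchanged and replicate 2 turned.

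Other protein folding genes were read beside the members. By symbol or synonym no other chaperonin gene with a probe of its own was found on either design, and probes without a gene name were not searched. Of 14 genes for other heat shock proteins and chaperones on SAM1, 9 had ratios above 0 and 5 below, with a median of 0.06, where 51.4% of all genes and unnamed probes were above 0 with a median of 0.003. At an unadjusted p under 0.05, 3 of the 14 were higher and 1 lower, beside 14.1% of all genes and unnamed probes in either direction, and 0 passed an adjusted p of 0.05 in limma. The HSP70 chaperone gene hsp70-5 gave 0.38 (SE 0.08) and was above 0 in 6 of 6 replicates, with an adjusted p of 0.120. The gene b-70, which encodes the chaperone BiP of the endoplasmic reticulum, gave 0.22 (SE 0.07) with an adjusted p of 0.254. The protein disulfide isomerase gene pdi3 gave -0.15 (SE 0.06, adjusted p = 0.299), and PDIL5-1 of the same family gave 0.22 (SE 0.09, adjusted p = 0.343).

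On SAM3, 9 of 15 such genes were above 0 as labelled, with a median of 0.02, and 8 with the exchange, with a median of 0.005, and none reached an unadjusted p of 0.05 in limma in either case, beside 6.52% of all genes and unnamed probes as labelled and 7.33% with the exchange. Over all SAM3 genes and unnamed probes 48.5% were above 0 as labelled and 51.3% with the exchange. There hsp70-5 gave 0.07 (SE 0.11) as labelled and -0.15 (SE 0.12) with the exchange, so its sign was not settled.

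Nuclear genes for other mitochondrial proteins lay on both sides of 0. Of 9 on SAM1, 5 were above 0 and 4 below, with a median of 0.04, where 51.4% of all genes and unnamed probes were above 0. None of the 9 had an adjusted or unadjusted p under 0.05 in limma, beside 14.1% at the unadjusted threshold over all. Of 10 on SAM3, 4 were above 0 as labelled and 3 with the exchange, with medians of -0.01 and -0.03, where 48.5% and 51.3% of all genes and unnamed probes were above 0. At an unadjusted p under 0.05, 1 of the 10 (PDK1) was higher as labelled, and with the exchange 1 (PDK1) was higher and 1 lower, beside 6.52% and 7.33% over all, and 0 had an adjusted p under 0.05. The lower gene, gdh1, a glutamate dehydrogenase gene named after its values were seen, gave -0.31 (SE 0.08) with the exchange and -0.14 (SE 0.10) as labelled. The voltage-dependent anion channel gene vdac2 gave 0.19 on SAM1 (SE 0.08, adjusted p = 0.365) and on SAM3 -0.01 (SE 0.06) as labelled and 0.001 (SE 0.07) with the exchange. The adenine nucleotide translocator genes, whose products exchange ADP and ATP across the inner membrane, gave 0.15 for ANT-G2 (SE 0.07) and 0.11 for ANT-G1 (SE 0.05) on SAM1, each above 0 in 6 of 6 replicates. On SAM3 as labelled ANT-G2 gave -0.02 and ANT-G1 -0.004, and with the exchange they gave -0.15 (SE 0.12) and -0.17 (SE 0.09). PDK1 gave 0.14 on SAM3 as labelled (SE 0.05, adjusted p = 0.699), 0.18 with the exchange (SE 0.07, adjusted p = 0.670), and -0.10 on SAM1 (SE 0.09).

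**Figure D4:**
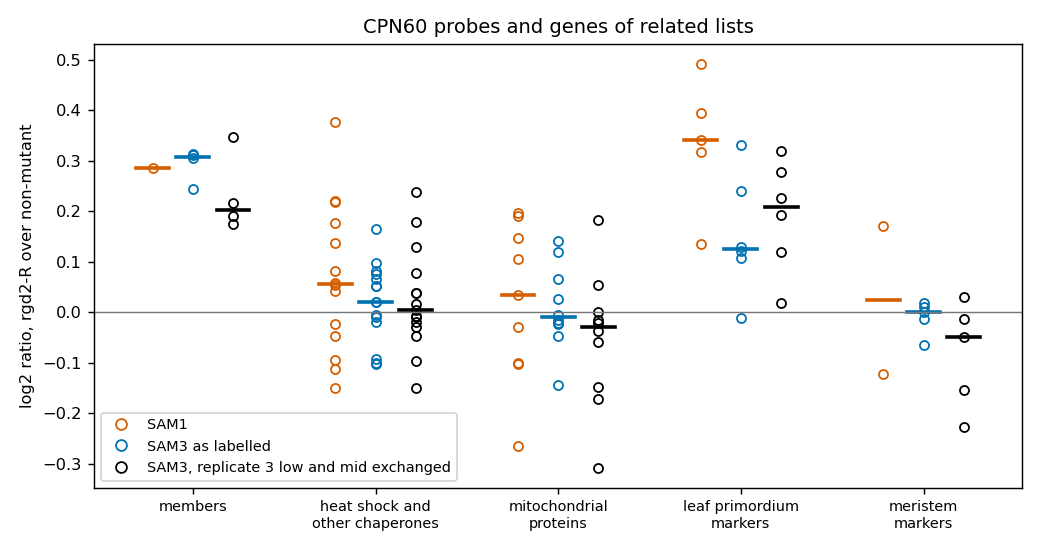
Log2 ratios of rgd2-R over non-mutant for the CPN60 probes (first column) and for genes of 4 lists, by array and by the treatment of SAM3 replicate 3; each open circle is a probe (first column) or a gene, and bars are medians. The list medians of the heat shock and mitochondrial genes lie between -0.03 and 0.06, and the leaf primordium markers between 0.13 and 0.34.

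Markers of young leaves were read as well, since such cells can enter a capture. All 5 leaf primordium markers on SAM1 (yab9, yab10, yab14, ns2 and rs2) were above 0, with a median of 0.34, where 51.4% of all genes and unnamed probes were above 0. None of the 5 passed an adjusted p of 0.05 in limma and 1 had an unadjusted p under 0.05, beside 14.1% over all. Their mean was 1.65 in SAM1 replicate 3 and between -0.23 and 0.36 in the others. The shared chaperonin probe gave 0.16 in replicate 3 and 0.32 (SE 0.08) without it. On SAM3, 5 of 6 leaf primordium markers were above 0 as labelled (median 0.13) and 6 of 6 with the exchange (median 0.21). Their means were 0.34, 0.04 and 0.39 in replicates 4 to 6, where CPNA stood at 0.53, 0.27 and 0.61 and mtcpn60II at 0.39, 0.21 and 0.76. In replicates 1 to 3 as labelled their means were 0.14, 0.03 and -0.02. There CPNA stood at -0.02, 0.25 and 0.01 and mtcpn60II at 0.07, 0.25 and 0.20. With the exchange the marker mean in replicate 3 was 0.22, where the CPNA probes lay on opposite sides of 0 and the mtcpn60II probes below 0. On SAM3 1 of these 6 markers had an unadjusted p under 0.05 as labelled and 2 with the exchange, all higher in rgd2-R, beside 6.52% and 7.33% over all, and 0 had an adjusted p under 0.05 in limma. The marker ns2 gave 0.24 (SE 0.05, adjusted p = 0.544) as labelled and 0.28 (SE 0.06, adjusted p = 0.540) with the exchange. For the other marker lists the SAM1 medians were 0.03 (epidermis), 0.02 (meristem), 0.02 (photosynthesis) and -0.09 (vascular and lignin). On SAM3 the medians in that order were 0.09, 0.001, 0.005 and -0.05 as labelled and -0.04, -0.05, -0.04 and -0.18 with the exchange. The epidermis markers above 0 on SAM3 were 5 of 5 as labelled and 2 of 5 with the exchange, beside 48.5% and 51.3% over all. The part of leaf tissue in the chaperonin ratios was not tested.

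Genes whose 6 replicate ratios were most like those of the members were ranked by Pearson correlation, as a description over 6 points that share the arrays. Among 583 genes with a probe of their own on SAM1 the closest to probe 2958 were sod3, which encodes the manganese superoxide dismutase of mitochondria (r = 0.98), m26 (r = 0.93), rnc1, a chloroplast splicing factor (r = 0.92), and glct1 (r = 0.88). The ratios of sod3 were small, from -0.06 in replicate 5 to 0.12 in replicate 6. Among 596 on SAM3 the closest to the mean of the member genes were Rbl1, a retinoblastoma-related gene (r = 0.94), RR8, a cytokinin response regulator (r = 0.92), LOC541695 (r = 0.91) and hsp101, a heat shock disaggregase (r = 0.91). With the exchange they were LOC732777 (r = 0.98), hsp101 (r = 0.97), SH-1 (r = 0.97) and pk8-a (r = 0.95), so hsp101 was the 1 gene in both sets. The ratio of hsp101 was -0.22, -0.06 and 0.06 in replicates 1 to 3 as labelled and 0.19, 0.14 and 0.49 in replicates 4 to 6. With the exchange it was -0.43 in replicate 3. Its fitted ratio was 0.10 (SE 0.07) as labelled and 0.02 (SE 0.08) with the exchange.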

How the data were processed

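Per the file headers, the deposited intensity columns give the spot signal and the background around it in each dye, before any correction. A processed ratio on the natural log scale was deposited beside them, and how the authors corrected and normalized it is not stated in the labels. Set against the scanner values of spots with over 500 units above background, the authors' ratios followed the natural log of non-mutant over rgd2-R with slopes of 0.84 to 1.06. Their column medians were -0.080 to 0.044, and their centring stays unknown.

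From the deposited intensities, background was corrected with normexp (offset 50) and ratios were normalized within each array by loess in limma 3.58.1 (R 4.3.3). They were expressed as log2 rgd2-R over non-mutant and averaged over the 3 readings of a replicate. Each design was fitted apart with terms for genotype and dye (4 residual degrees of freedom), and p-values were adjusted over all its probes by Benjamini-Hochberg. Genes of several probes entered the list comparisons as probe means. In simulated arrays of SAM1, 94% of 2-fold changes were recovered, and in those of SAM3 84%. Changes as small as the member ratios were not simulated, and the noise was drawn independently for each replicate. These rates therefore do not apply to the members. Arrays have no read depth, and the number of replicates limits the precision.

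Probes were named from the platform annotation, which gave 1 gene for 1800 SAM1 and 1159 SAM3 probes and several for 23 and 1. The members, lists and tests were chosen with earlier results of these data known. From each list up to 4 genes with the smallest unadjusted p were named, and the 4 genes most like the members. Alternatives were other background corrections, median centring, single readings, no dye term, leaving out each replicate, the exchange or turning of SAM3 replicates, and the authors' table.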

Additional observations from a re-analysis of the deposited data

Results flagged for a closer look

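Replicate values were set against Dixon's 95% limit for 6 values in 47 sets of 6, which chance passes in about 1 set in 20, and 2 sets passed it. Neither belongs to a CPN60 probe. On SAM3 as labelled Rbl1, the gene whose ratios were most like those of the chaperonin genes, gave 0.62 in replicate 6 and between -0.09 and 0.15 in the others. On SAM3 as labelled ANT-G2 gave -0.71 in replicate 2 and between -0.002 and 0.21 in the others.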

How the results depend on the processing

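No paired analysis was possible because each hybridisation already sets rgd2-R against non-mutant, and the SAM1 and SAM3 replicates of the same number were read with different probes and fitted apart. The ratio of each member stayed above 0 under every alternative run. For SAM3 this is no independent check, because the genes were picked for high ratios on the same arrays. Turning replicates also left those with rgd2-R in Cy5 unchanged, and their probe means were 0.42 to 0.50. With the readings exchanged, the means with rgd2-R in Cy3 were -0.11 for probe 12249 and -0.14 for probe 13454. They were 0.26 for probe 1586 and 0.01 for probe 6359. The shared SAM1 probe ran from 0.17 (mid readings alone) to 0.51 (plain background subtraction) and from 0.22 to 0.35 with a replicate left out, and its adjusted p stayed between 0.120 and 0.538. Its dye term changed sign without background correction, to 0.035 from -0.012. As labelled, leaving out a replicate gave 0.23 to 0.32 for CPNA and 0.24 to 0.37 for mtcpn60II. With the readings exchanged, it gave 0.22 to 0.32 for CPNA and 0.12 to 0.31 for mtcpn60II, which was 0.12 without replicate 2 or without replicate 6 and 0.31 without replicate 3. Probe 12249 was then 0.05 without replicate 2. Probe 6359 went to 0.09 with the readings exchanged and replicate 2 turned. The authors' deposited table gave 0.38 for the SAM1 probe, 0.28 for CPNA and 0.42 for mtcpn60II. The number of SAM1 probes past an adjusted p of 0.05 was 42 without the dimmest 25% of probes, 195 without background correction and 11 with median centring, against 0, and the chaperonin probe was in none of them. Median centring also gave 426 SAM1 probes higher at an unadjusted p under 0.05 and 340 SAM3 probes lower, and the cause was not tested. The settings that took replicate 3 by its high reading or turned replicates 1 and 3 were chosen after seeing the data. The dim SAM1 spot, at a median of 2.78 times background in Cy3, limits how far its ratio can be read.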
